A study of Mus musculus with 4 samples.

Results

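The contacts described here are H3K27ac HiChIP interactions in which each anchor lay at an end of a different protein-coding gene. HiChIP joins DNA that lies close together in the nucleus and enriches it with an antibody, here against the acetylated histone H3 of active promoters and enhancers. An interaction was counted if each of its 10 kb anchor bins came within 2.5 kb of an end of an autosomal coding gene, and if no gene had an end at both anchors. There were 16794 such contacts among 99041 listed interactions, or 17.0% (95% interval 16.7 to 17.2%). Of the rest, 42832 had 1 anchor at a coding-gene end, 38303 had none and 1112 had anchors that shared a gene.

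The series holds 4 libraries of mouse brain cells: 2 of tumor cells with the YAP-M fusion and 2 of wild-type cultured neural stem cells (mNSC), all with H3K27ac antibody. YAP-M is read as the fusion of YAP1 with MAMLD1 that occurs in ependymoma. The labels give no age, strain or number of animals, and do not say how the fusion was driven. The analysed data are 1 list whose name carries the letters YM, read here as YAP-M tumor. Neither the labels nor the file header ties it to particular libraries, and no mNSC list was used, so no comparison of tumor with mNSC was made. The list carries no read count or score, so depth is unknown, and with 1 list no value has a replicate error and no test was run. Intervals on shares are exact (Clopper-Pearson) 95% intervals that cover counting error only. Neighbouring interactions are not independent, so these intervals are too narrow.

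Promoters of different genes are known to meet in the nucleus, often among active genes that share a neighbourhood, and some promoters are known to act on other genes as enhancers do. Paralogs are genes that arose by duplication. Many remain side by side, and neighbouring paralogs in development, such as the Irx and Dlx genes, are known to share enhancers. A gene between 2 contacting regions is called skipped here if it lies wholly between the anchors.

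To show what lay at or near such anchors, promoters of 5 joined pairs are printed. They run from 250 bases before to 50 bases after the start site, from RefSeq's table for GRCm38.p6, the assembly of mm10. They were chosen after the values were seen, and each start site lies in or within 2.5 kb of an anchor of a gene-to-gene contact. The anchor bins that join Zfp708 to Zfp729a do not hold the Zfp708 start itself. Batf3 and Atf3, both basic leucine zipper factors of the AP-1 class, and Sp3 and Sp9, both zinc finger factors that bind GC boxes, are neighbouring relatives. Tiparp, an ADP-ribosyltransferase induced by the aryl hydrocarbon receptor, was joined to Ccnl1, which encodes cyclin L1, over a gene between them. Nsmce1, a subunit of the SMC5/6 complex, and Il4ra, the interleukin 4 receptor alpha chain, form the pair with the most interactions at the 2.5 kb window. Zfp708 and Zfp729a are zinc finger genes of 1 cluster. Capitals mark matches, on either strand, to 9 motifs. Those matched in the printed promoters are the E-box, the CTCF core, the GC box, the CCAAT box and the ETS motif, whose letters are given with their results. Matches can overlap, as the CTCF core and a GC box do in Batf3.
Batf3 (chr1:191098164-191098463, + strand): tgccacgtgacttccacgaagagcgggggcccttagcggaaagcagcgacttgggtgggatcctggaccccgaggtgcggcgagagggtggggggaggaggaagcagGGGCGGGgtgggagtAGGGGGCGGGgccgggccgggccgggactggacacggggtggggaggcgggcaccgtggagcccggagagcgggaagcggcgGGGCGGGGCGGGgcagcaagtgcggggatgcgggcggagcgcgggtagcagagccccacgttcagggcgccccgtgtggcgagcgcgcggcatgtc
Atf3 (chr1:191183284-191183583, - strand): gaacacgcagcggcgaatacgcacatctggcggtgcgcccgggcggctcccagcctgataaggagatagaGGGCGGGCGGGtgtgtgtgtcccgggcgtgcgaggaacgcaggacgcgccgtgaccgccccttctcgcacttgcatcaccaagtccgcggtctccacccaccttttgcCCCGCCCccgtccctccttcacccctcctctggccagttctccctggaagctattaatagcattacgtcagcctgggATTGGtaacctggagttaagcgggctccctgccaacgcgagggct
Sp3 (chr2:72980397-72980696, - strand): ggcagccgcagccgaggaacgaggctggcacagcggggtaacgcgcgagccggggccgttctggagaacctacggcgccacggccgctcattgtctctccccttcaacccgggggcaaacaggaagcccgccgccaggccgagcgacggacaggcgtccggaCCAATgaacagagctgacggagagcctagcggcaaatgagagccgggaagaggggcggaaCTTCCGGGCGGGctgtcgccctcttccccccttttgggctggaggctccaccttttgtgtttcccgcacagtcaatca
Sp9 (chr2:73271676-73271975, + strand): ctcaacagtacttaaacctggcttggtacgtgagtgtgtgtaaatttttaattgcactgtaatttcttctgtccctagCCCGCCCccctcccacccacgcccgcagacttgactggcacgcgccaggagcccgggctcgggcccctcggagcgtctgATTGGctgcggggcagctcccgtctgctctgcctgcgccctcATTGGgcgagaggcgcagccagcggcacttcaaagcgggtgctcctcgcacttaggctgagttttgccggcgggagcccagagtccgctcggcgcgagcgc
Tiparp (chr3:65528197-65528496, + strand): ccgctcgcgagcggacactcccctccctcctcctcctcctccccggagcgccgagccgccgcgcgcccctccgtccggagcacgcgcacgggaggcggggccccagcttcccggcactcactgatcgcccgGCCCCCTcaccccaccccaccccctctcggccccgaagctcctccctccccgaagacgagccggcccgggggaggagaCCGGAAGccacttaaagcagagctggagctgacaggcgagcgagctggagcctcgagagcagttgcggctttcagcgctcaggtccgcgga
Ccnl1 (chr3:65958200-65958499, - strand): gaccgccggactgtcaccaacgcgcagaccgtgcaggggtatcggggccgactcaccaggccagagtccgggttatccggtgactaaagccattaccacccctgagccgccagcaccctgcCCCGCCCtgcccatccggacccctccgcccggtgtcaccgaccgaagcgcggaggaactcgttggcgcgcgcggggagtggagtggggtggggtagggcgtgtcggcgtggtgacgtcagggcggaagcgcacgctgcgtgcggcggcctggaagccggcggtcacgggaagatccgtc
Nsmce1 (chr7:125491394-125491693, - strand): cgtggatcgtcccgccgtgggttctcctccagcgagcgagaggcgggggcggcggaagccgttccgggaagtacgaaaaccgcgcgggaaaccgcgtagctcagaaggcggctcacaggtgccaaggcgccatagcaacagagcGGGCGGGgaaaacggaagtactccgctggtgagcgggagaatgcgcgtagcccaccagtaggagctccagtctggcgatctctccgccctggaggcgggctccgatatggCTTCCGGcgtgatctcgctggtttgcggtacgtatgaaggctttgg
Il4ra (chr7:125552021-125552320, + strand): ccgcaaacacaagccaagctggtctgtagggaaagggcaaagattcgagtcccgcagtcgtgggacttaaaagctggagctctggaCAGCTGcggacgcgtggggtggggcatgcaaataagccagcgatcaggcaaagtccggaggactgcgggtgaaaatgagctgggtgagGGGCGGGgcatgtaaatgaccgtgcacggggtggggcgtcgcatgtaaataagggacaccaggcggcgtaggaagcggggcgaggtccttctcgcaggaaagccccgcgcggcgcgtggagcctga
Zfp708 (chr13:67097927-67098226, - strand): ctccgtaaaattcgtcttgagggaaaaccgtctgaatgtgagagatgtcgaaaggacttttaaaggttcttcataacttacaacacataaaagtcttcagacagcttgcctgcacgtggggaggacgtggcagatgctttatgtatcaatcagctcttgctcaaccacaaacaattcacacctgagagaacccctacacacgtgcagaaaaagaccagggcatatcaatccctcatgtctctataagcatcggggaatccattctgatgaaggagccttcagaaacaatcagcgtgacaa
Zfp729a (chr13:67637732-67638031, - strand): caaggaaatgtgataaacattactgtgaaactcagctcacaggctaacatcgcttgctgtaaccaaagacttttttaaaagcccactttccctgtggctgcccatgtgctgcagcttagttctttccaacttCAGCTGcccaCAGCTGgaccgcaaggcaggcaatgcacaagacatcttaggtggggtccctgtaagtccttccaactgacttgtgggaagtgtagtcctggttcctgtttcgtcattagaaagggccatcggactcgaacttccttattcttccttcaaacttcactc

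The promoters of Batf3 and Atf3 held 34 and 27 CG dinucleotides, and all 4 GC box matches of Batf3 lay within 143 bases before its start. Sp3 and Sp9 held 29 and 25, Tiparp and Ccnl1 34 and 37, and Nsmce1 and Il4ra 35 and 25. Zfp708 and Zfp729a differed from these in having 9 and 5, and no motif of the 9 was matched in Zfp708. An ETS match stood in Sp3, Tiparp and Nsmce1, but in no partner of theirs printed here. The Zfp708 promoter was no more like those of 8 joined relatives than the promoters of the other printed pairs were like each other. Identity over the 300 bases was 58.0 to 60.3% between Zfp708 and these relatives, and 54.3 to 62.3% in the other 4 printed pairs. Other joined Zfp pairs were not compared. A match is a description of the letters and not a bound site.

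The gene-to-gene contacts spanned a median of 170 kb (quartiles 100 and 290 kb), against 180 kb for all other interactions, so they were not set apart by distance. They stood alone more often: 14.1% had no listed interaction in an adjacent bin pair, against 9.32% of all other interactions. When adjacent interactions were merged, 7905 of 28050 contacts held a gene-to-gene contact. An anchor held the ends of up to 6 coding genes, and in 7384 contacts (44.0%, 43.2 to 44.7%) each anchor held exactly 1 gene. For the other contacts the partner genes cannot be told apart from their close neighbours.

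**Figure D1:**
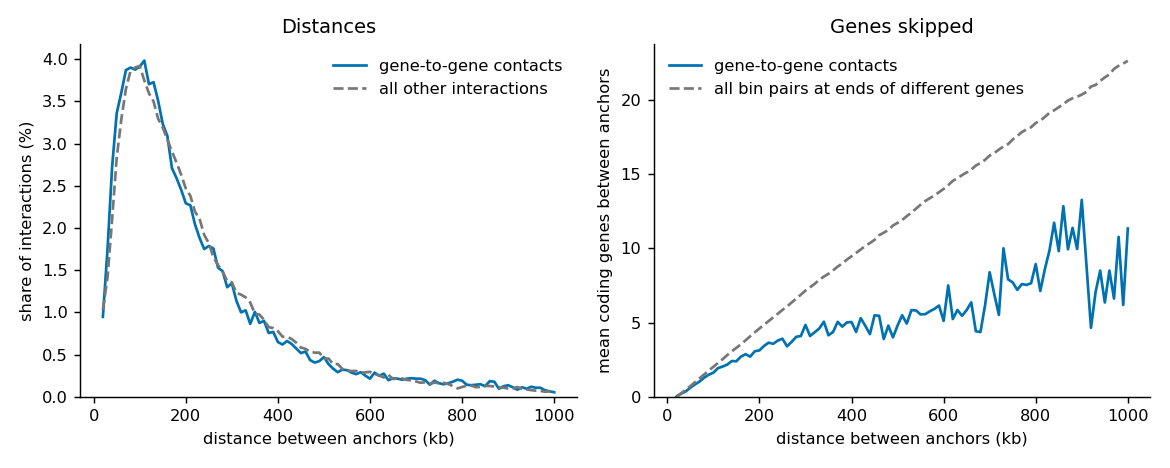
Left, share of interactions (%) at each distance between anchors (kb) for gene-to-gene contacts (solid) and all other interactions (dashed). Right, mean number of coding genes between the anchors for gene-to-gene contacts (solid) and for all bin pairs at ends of different genes (dashed). The distances nearly coincide, with medians of 170 and 180 kb. The contacts held fewer genes between their anchors on average than bin pairs in general, by little up to 100 kb (1.62 and 2.02 there) and by more beyond.

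The contacts joined 20221 gene pairs, out of 376523 pairs with ends in bins 20 to 1000 kb apart, which gives a background of 5.37%. Of the joined pairs, 54.6% rested on 1 interaction, 3.07% on 5 or more, and 4963 were joined through anchors with 1 gene each. The joined share was 13.4% at 20 to 50 kb, 15.9% at 60 to 100 kb, 11.9% at 110 to 200 kb, 5.45% at 210 to 400 kb and 1.31% beyond that. Counted over bin pairs, 1.41% of those at ends of different genes were listed. Of 20665 coding genes, 11451 (55.4%) were in at least 1 contact, with a median of 3 partner genes (quartiles 2 and 5).

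Genes joined to other genes also tended to contact sites away from gene ends. An interaction with 1 anchor at the gene and the other at no coding-gene end was listed for 68.5% of joined genes (67.6 to 69.3%), against 22.3% of genes in no gene-to-gene contact (21.5 to 23.2%). Pairs in which both genes had such an interaction were joined in 13.1% of cases, pairs with 1 such gene in 4.63% and pairs with none in 1.70%. This order held in all 5 distance classes, for example 4.11%, 0.878% and 0.234% beyond 400 kb. Interactions away from gene ends were counted even where they adjoined a gene-to-gene contact of the same gene. The shares above are therefore partly linked by the way of counting, and how far was not tested. How much H3K27ac or read depth at an anchor contributes was not tested, since the list holds neither.

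At the 2.5 kb window the pair with the most interactions was Nsmce1 with Il4ra on chromosome 7, at 125467644 to 125491443 and 125552271 to 125579474 (mm10). It had 12 interactions at 50 to 120 kb, which form 1 contact when merged, and 10 of them had 1 gene at each anchor. No gene lies between them. The rank depends on the window: the pair had 3 interactions at 0 kb, against 4 for Fads3 with Fads1, none by bin midpoint, and fewer than the 14 of Fads3 with Fads1 at 5 kb. Azin1, an inhibitor of antizyme in polyamine metabolism, was joined to Atp6v1c1, a subunit of the vacuolar proton pump, by 8 interactions at 130 to 200 kb. Cspg4b and Snx18, a sorting nexin, had 7 interactions at 210 to 320 kb, again with no gene between. When adjacent interactions were merged, Azin1 with Atp6v1c1 was 1 contact and Cspg4b with Snx18 was 2.

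Other pairs among the 10 with the most interactions through 1-gene anchors reached over genes. Cdrt4 was joined to Pmp22, a myelin protein gene, by 7 interactions at 130 to 190 kb that skip Tekt3. Tiparp and Ccnl1, whose promoters are printed above, had 6 interactions at 390 to 440 kb that skip Lekr1. The start sites of both lay among the joined bins. Necap1, an endocytosis factor, was joined to the C-type lectin gene Clec4d by 6 interactions at 360 to 390 kb over 7 genes, all of the Clec4 family. Ttf2, a termination factor, was joined to the T cell adhesion gene Cd2 by 7 interactions over Cd101, Ptgfrn and Gm52612.

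Long contacts joined some pairs with few or no genes between them. Mmadhc, a cobalamin metabolism gene, and Rnd3, a small GTPase, had 6 interactions at 830 to 860 kb with no coding gene between. Klf7 was joined to 4933402D24Rik by 7 interactions at 250 to 370 kb, also with none between. The longest with 1 gene at each anchor, between Rspo3 and Trmt11 at 1000 kb, skips 1 gene, Cenpw. It was 1 of 9 gene-to-gene contacts at that distance. Hmgb2, a chromatin protein gene, was joined to Cep44 at 980 to 990 kb over Fbxo8, Hand2, Scrg1 and Sap30.

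Mysm1, a histone H2A deubiquitinase, and Hook1, which links cargo to microtubules, were joined at 990 kb over Jun and Fggy. Jun, a core AP-1 factor, was itself joined to Fggy by 2 interactions at 500 and 870 kb and to Hook1 by 1 at 910 kb. Mysm1 was also joined to Fggy at 950 kb. The skipped genes were thus partners in the same neighbourhood. Jun further had 87 interactions with sites away from gene ends, against 11 for Mysm1, 7 for Fggy and 0 for Hook1.

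**Figure D2:**
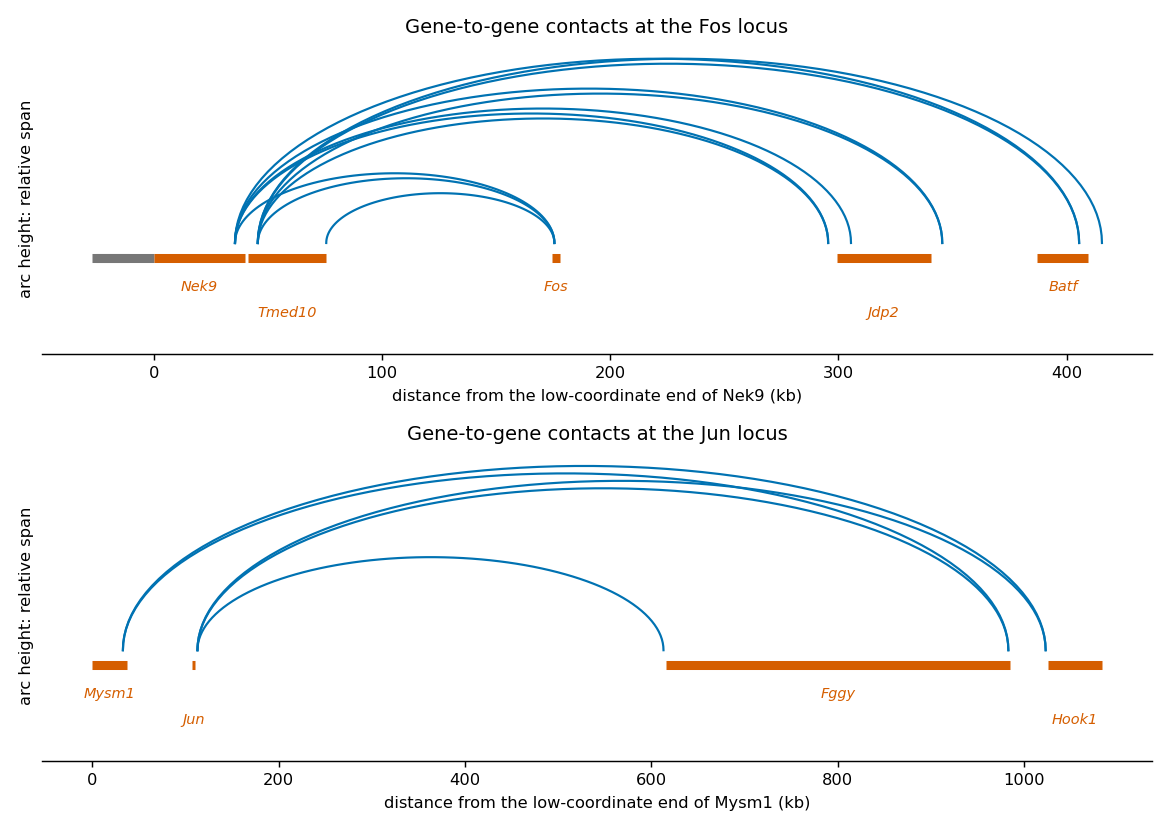
Gene-to-gene contacts at the Fos locus (top, 11 contacts) and the Jun locus (bottom, 5 contacts), as arcs between bin centres. The horizontal axis is the distance (kb) from the low-coordinate end of Nek9 or Mysm1, orange bars are the named genes, the grey bar covers Acyp1 and Zc2hc1c, and arc height is relative to the span. Fos, Jdp2 and Batf each connect to the Nek9 and Tmed10 bins and not to one another, and Jun connects to Fggy and Hook1.

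Paralog pairs were approximated by a shared symbol stem, such as Irx in Irx1 and Irx2, because no protein sequences were used here. A stem is a naming rule, and stems such as Zfp, Cd or Tmem hold genes that need not be close relatives. By this rule 620 of 37220 same-stem pairs were joined (1.67%, 1.54 to 1.80%), against 5.78% of pairs with different stems (5.70 to 5.86%). That value was carried by receptors of smell and taste: olfactory, vomeronasal, taste and trace amine receptor pairs made up 77.8% of the same-stem pairs, and 16 of 28947 were joined. Without them 604 of 8273 same-stem pairs were joined, or 7.30% (6.75 to 7.88%). The figure for relatives therefore depends on which families are counted, and the value over all pairs mixes distances.

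Within distance classes, same-stem pairs without chemoreceptors were joined less often than pairs with different stems up to 200 kb. The shares were 9.65% (8.49 to 10.9%) and 14.9% (14.5 to 15.3%) at 20 to 50 kb, and 8.04% (6.69 to 9.55%) and 13.3% (12.9 to 13.6%) at 110 to 200 kb. At 210 to 400 kb they were 5.11% and 5.98%, with overlapping intervals. Beyond 400 kb the order turned, with 3.14% (2.36 to 4.09%) and 1.39% (1.33 to 1.44%). Zfp pairs accounted for that turn: they made up 32 of the 53 joined same-stem pairs beyond 400 kb, and with Zfp and chemoreceptor stems both left out the share there was 1.57%, with an interval that holds the 1.39% of different stems.

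Where both genes also had interactions away from gene ends, the order differed again, with same-stem pairs joined more often in the classes beyond 100 kb. Same-stem pairs of that kind were joined in 19.1% of cases at 20 to 50 kb (16.0 to 22.6%), 34.8% at 60 to 100 kb, 38.6% at 110 to 200 kb, 21.8% at 210 to 400 kb and 11.9% beyond. All pairs of that kind, same stem or not, were joined in 22.0%, 33.0%, 28.0%, 15.1% and 4.11% in the same classes. This split was made after the first values were seen, and the Zfp pairs were not left out of it. Nor were interactions that adjoin a gene-to-gene contact.

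**Figure D3:**
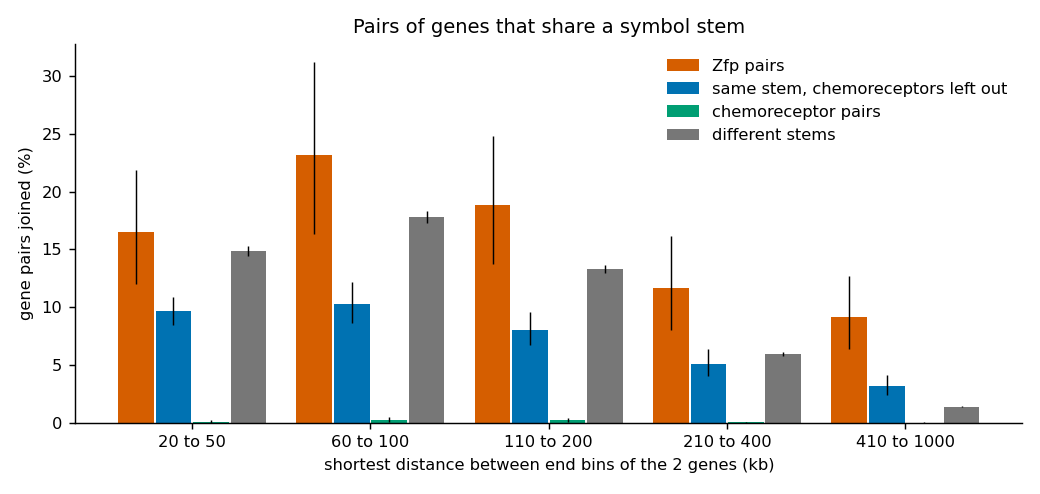
Share of gene pairs joined (%) by the shortest distance between end bins (kb), for Zfp pairs, same-stem pairs without chemoreceptors (Zfp included), chemoreceptor pairs and pairs with different stems. Bars are shares and lines are exact 95% intervals of counting error. Chemoreceptor pairs lie near 0 throughout, and Zfp pairs reach 9.17% beyond 400 kb, where pairs with different stems reach 1.39%.

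Zfp genes, which encode zinc finger proteins, many of them transcriptional repressors in clusters, gave the largest count of any stem. They had 171 joined pairs of 1184 (14.4%, 12.5 to 16.6%), of which 78 lay on chromosome 7, 45 on chromosome 13 and 30 on chromosome 17, with spans up to 970 kb. Of the 171, 84 were joined through anchors with 1 gene each. On chromosome 13, at the 2.5 kb window, Zfp708 (67069398 to 67097976) had 11 partner genes through anchors with 1 gene each, more than any other coding gene. Among them were Zfp65, Zfp85, Zfp273, Zfp457, Zfp493, Zfp729a, Zfp729b, Zfp738, Zfp748 and Zfp953. It had no interaction with a site away from gene ends. Its contacts with Zfp65 at 620 and 630 kb skip 18 genes, nearly all of them further Zfp genes. With a window of 0 kb, or by bin midpoint, Zfp708 was joined to neither Zfp65 nor Zfp85. Zfp65 had 9 partner genes by the same count and Zfp273 and Zfp729a had 8 each. Whether read mapping in these gene clusters contributes was not tested.

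Some stems of immune genes, picked for their many joined pairs, are described next, beside the 5.37% of all pairs. That background mixes distances, with 15.9% at 60 to 100 kb, 11.9% at 110 to 200 kb and 1.31% beyond 400 kb. It is therefore low for compact clusters. Others had few or none, such as Ifna with 0 of 74, Klra with 0 of 51 and Oas with 2 of 36. Ms4a genes, which encode membrane-spanning proteins of immune cells, had 33 joined pairs of 210, and Ms4a6d reached 8 partner genes through 1-gene anchors. Ms4a8a and Ms4a6d were joined at 540 kb over 15 genes. Gimap genes, GTPases of lymphocytes, had 17 of 28, and Gimap8 and Gimap3 were joined by 4 interactions at 110 to 130 kb over the other 6 Gimap genes. Gbp genes, interferon-induced GTPases, had 10 of 20, and Ifi genes 18 of 56. S100a calcium-binding genes had 20 of 63, but 1 of these through anchors with 1 gene each. By that count Ms4a had 24 of its 33 joined pairs, Gimap 9 of 17, Gbp 7 of 10 and Ifi 6 of 18. Among stems with many candidates, keratins (Krt) had 7 joined pairs of 673 and olfactory receptors (Olfr) 4 of 25353.

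**Figure D4:**
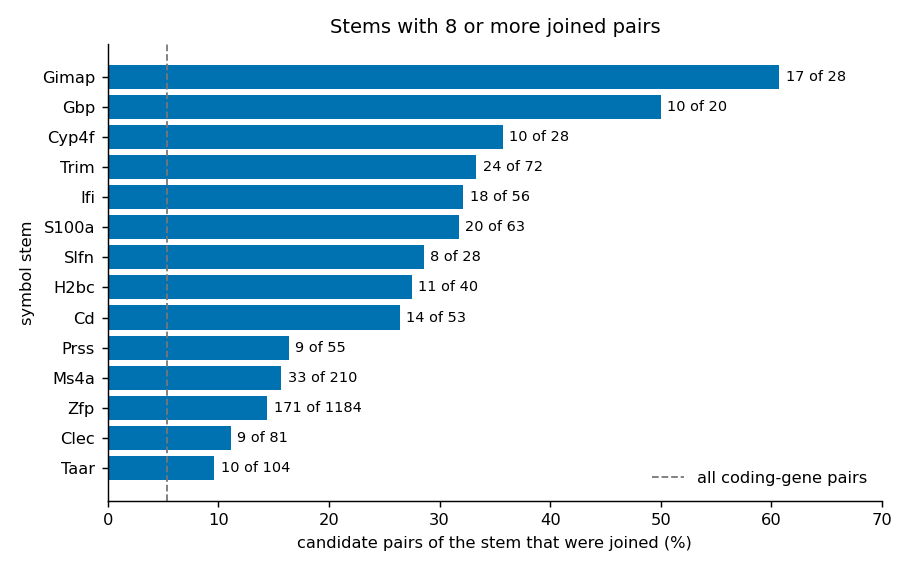
Share of candidate pairs joined (%) for each symbol stem with 8 or more joined pairs, with joined and candidate pairs printed at each bar. The dashed line is the share over all coding-gene pairs, 5.37%. Stems were picked by their number of joined pairs, so their place above the line is not a finding, and the distances of the pairs differ between stems.

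Single same-stem pairs with many interactions were mostly close neighbours. Cd101 and Cd2 had 8 interactions at 250 to 310 kb, Cd5 and Cd6 had 8 at 50 to 120 kb, and Fads3 and Fads1, fatty acid desaturase genes, had 8 at 120 to 160 kb. Of the Fads contacts, 1 had 1 gene at each anchor, because neighbours such as Fads2 and Fen1 shared the other bins. None of the 5 interactions of Slfn8 with Slfn4, genes of lymphoid and myeloid cells, had 1 gene at each anchor, since Slfn9 or Slfn3 shared the bins. Cd300a and Cd300e, myeloid receptor genes, had 5 over 6 to 8 genes of the same family.

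Of 41 neighbouring pairs named from textbook knowledge of development, signalling and matrix, 9 were joined (22.0%, 10.6 to 37.6%), and 6 of them through 1-gene anchors. The background in the same classes runs from 15.9 to 1.31%, and most of these pairs are closer than 400 kb. Olig2 and Olig1, factors of the oligodendrocyte lineage, had 3 interactions at 30 to 50 kb. Irx3 and Irx5 had 3 at 550 and 560 kb and Irx1 and Irx2 had 2 at 660 and 670 kb, with no coding gene between in either case. Sp3 and Sp9 had 3 at 290 and 300 kb over Ola1, and Batf3 and Atf3 had 2 at 80 and 90 kb over Fam71a. Dlx1 with Dlx2, Wnt10b with Wnt1 and Col6a2 with Col6a1 had 1 each.

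Distance did not order the Irx genes: Irx5 and Irx6 lie 310 kb apart and were not joined, while Irx3 and Irx5 were at 550 kb. Of 39 same-stem pairs joined at 500 kb or more, 4 had a contact with no coding gene between: the 2 Irx pairs, Sp4 with Sp8 at 540 and 550 kb, and Klf5 with Klf12 at 570 kb. Each of these 8 genes encodes a transcription factor. These 4 are few, and nothing was tested on them.

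Other neighbours of that list were not joined to each other. Fos, Jdp2 and Batf, AP-1 family genes on chromosome 12, shared no contact, but each was joined to Tmed10 and Nek9. Fos had 3 interactions with Tmed10 at 100 to 140 kb, Jdp2 had 5 with Tmed10 at 250 to 310 kb that skip Fos, and Batf had 3 at 360 and 370 kb that skip Fos and Jdp2. The bins of Tmed10 and Nek9 hold both genes in all but 1 of these, so which of them is the partner cannot be told. Pdgfra, Kit and Kdr, receptor tyrosine kinase genes in a row on chromosome 5, were not joined although Pdgfra had 24 interactions with sites away from gene ends and Kdr had 11; Kit had 0. Cdkn2a and Cdkn2b, cell cycle inhibitor genes with 14 such interactions each, lie at the short end of the listed range and were not joined. Yap1 was joined to neither Birc2 nor Birc3, and to no other coding gene.

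Most contacts passed over other genes. Of all gene-to-gene contacts 73.8% (73.1 to 74.5%) skip at least 1 coding gene, with a median of 2 (quartiles 0 and 4), and 21.3% skip 5 or more. Skipping was nonetheless less than the gene map allows: bin pairs at ends of different genes have a median of 8 coding genes between them. Within distance classes the medians were 0 for contacts and 0 for all bin pairs at 20 to 50 kb, and 1 and 1 at 60 to 100 kb. They were 2 and 3 at 110 to 200 kb, 3 and 6 at 210 to 400 kb, and 4 and 13 beyond. Put the other way, 6.96% of bin pairs with no gene between were listed at 110 to 200 kb, against 3.38% of those with a gene between. The shares were 5.60% against 4.12% at 60 to 100 kb and 3.01% against 0.334% beyond 400 kb. At 20 to 50 kb there was no such order, with 3.03% and 3.18%. Gene-poor and gene-rich regions also differ in other ways, and their part was not tested.

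The contact with 1 gene at each anchor that skips the most genes joined Krt23 and Krt33a, keratin genes on chromosome 11, at 530 and 540 kb over 40 genes. Next came Lelp1 with Lce1m, both of the epidermal differentiation cluster on chromosome 3, at 880 kb over 39 genes, largely of the Sprr and Lce families. Trim27 reached Prss16 at 830 kb over 38 genes and Pom121l2 at 800 kb over 37, among them histone genes, olfactory receptors and zinc finger genes. Lelp1 with Lce1m and both Trim27 pairs rested on 1 interaction each. With a window of 0 kb, or by bin midpoint, none of these was joined. Over all contacts the highest number skipped was 59.

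Most skipped genes had interactions of their own, but by definition they lie inside contacted stretches. Of 9249 skipped genes, 73.1% (72.2 to 74.0%) were themselves in a gene-to-gene contact, against 55.4% of all coding genes. No interaction at either end was listed for 21.1% of them (20.3 to 22.0%), against 34.3% of all coding genes. In 86.7% of skipping contacts at least 1 skipped gene was itself joined to a gene at one of the anchors, and in 5.82% all skipped genes lacked interactions. Where each anchor held 1 gene, 77.3% of the partner genes (76.0 to 78.5%) had an interaction away from gene ends. Of genes that those contacts only skip, 47.1% had one (45.4 to 48.7%), close to the 47.9% of all coding genes. Interactions that adjoin a gene-to-gene contact were not left out, which can raise the share of partner genes.

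The 10 genes skipped by the most contacts lay on chromosomes 7, 11 and 19. Cd6, a surface receptor of T cells, was skipped by 62 contacts on chromosome 19, more than any other gene, and was itself in 13 contacts with Cd5, Pga5 and Vps37c. On chromosome 7, Asphd1, Cdipt, Cdiptos, Kctd13, Tmem219 and Sez6l2 were skipped by 54 to 60 contacts each and were in 6 to 14. Qprt, an enzyme of NAD synthesis that flanks this stretch, had 29 partner genes, more than any other gene, but 6 of them through 1-gene anchors. On chromosome 11, Spem1 and Spem2, sperm maturation genes, were each skipped by 55 contacts and had no interaction at all, while their neighbour Nlgn2, a synaptic adhesion gene, was skipped by 52 and was in 4.

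Contacts fell more often on start sites than on far ends. A strand and start site were known for 16457 coding genes (79.6%). Among bin pairs with 1 such gene at each anchor 1.14% were listed: 2.34% (2.24 to 2.44%) of start with start, 1.09% of start with far end and 0.569% (0.511 to 0.631%) of far end with far end. Bin pairs with both ends of a short gene in 1 anchor were listed in 0.725% of cases. The order of the first 3 classes was the same in every distance class. Between start sites, genes transcribed away from each other were joined in 1.86% of cases (1.74 to 1.99%), genes in tandem in 1.43% (1.36 to 1.51%) and genes transcribed toward each other in 1.30%, whose interval overlaps that of tandem genes. The last 2 changed places at 60 to 100 kb (3.91% in tandem and 4.39% toward each other) and at 110 to 200 kb (3.65% and 3.70%). Beyond 400 kb the 3 shares were 0.531%, 0.509% and 0.443%, with overlapping intervals.

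CpG-rich promoters, taken as those with at least 15 CG in the 300 bases, made up 48.8% of promoters. Such promoters are common at broadly expressed and developmental genes. The bin pairs counted here have the listed start site of 1 coding gene at each anchor, short genes included, and differ from the start with start class above: 2553 of 165231 were listed. They were listed in 3.97% of cases when both promoters were CpG-rich, in 1.72% when 1 was and in 0.502% when neither was, and the order held in every distance class. Beyond 400 kb the shares were 1.53%, 0.513% and 0.111%. The Zfp708 and Zfp729a promoters, with 9 and 5 CG, belong to the joined pairs in which neither was CpG-rich.

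**Figure D5:**
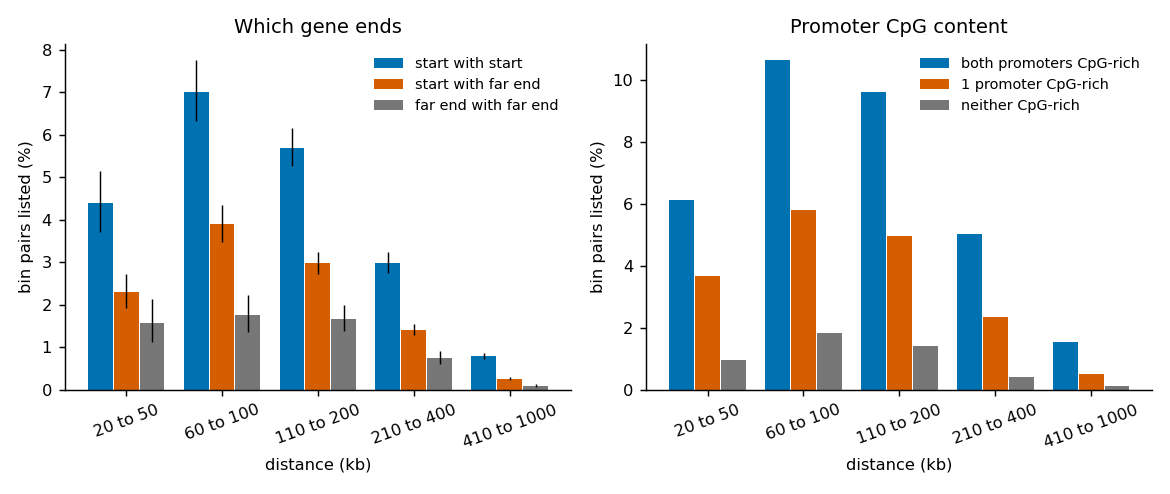
Share of bin pairs listed (%) by distance (kb), with 1 coding gene of known start at each anchor. Left, by which ends met, with exact 95% intervals as lines; right, for bins at the start site listed in the promoter table, short genes included, by how many of the 2 promoters were CpG-rich. Start with start lies above the other end classes, and pairs of CpG-rich promoters above the others, in each of the 5 distance classes.

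The 9 motifs were searched on both strands of every promoter, and the listed share of bin pairs of start sites, 1.55% over all, was set out by how many of the 2 promoters held the letters. The ETS motif, CCGGAAG, stood in 12.3% of promoters. Bin pairs were listed in 5.71% of cases with it in both promoters, 3.20% with it in 1 and 1.23% with it in neither. Among pairs of CpG-rich promoters the values were 8.03% (63 of 785), 4.98% and 3.44%, so the order held there. The ETS motif is 1 of 9 looked at, and its values were not tested.

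The orders seen for the GC box and the CTCF core were not seen among pairs of CpG-rich promoters. The GC box, GGGCGGG, stood in 34.7% of promoters and went with 3.53%, 2.13% and 0.872% in both, 1 and neither, but with 3.72%, 3.96% and 4.72% among pairs of CpG-rich promoters. The CTCF core, searched as AGGGGGC, stood in 12.9% and went with 3.33%, 2.30% and 1.36%, and with 3.70%, 3.64% and 4.17% among those pairs. The TEAD motif, GGAATG, is bound by the factors that recruit YAP1. It stood in 13.2% of promoters and showed little order, with 1.46%, 1.42% and 1.59%, and 4.35%, 3.91% and 3.98% among pairs of CpG-rich promoters. The AP-1 motif, TGANTCA, stood in 7.12% of promoters and ran the other way, with 0.440%, 1.02% and 1.67%. Among pairs of CpG-rich promoters the values were 2.44% (1 of 41), 3.78% and 3.98%, so those with it in 1 or neither lay close together.

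The E-box, CAGCTG, in 15.2% of promoters, went with 1.62%, 1.61% and 1.52%. The CCAAT box, in 39.1%, was held by both promoters in pairs listed in 1.35% of cases and by neither in pairs listed in 1.70%. The NRF1 core, GCGCATGC, went with 6.06% (10 of 165), 3.31% and 1.45%, and with 5.83% (7 of 120), 4.88% and 3.84% among pairs of CpG-rich promoters. The YY1 core, searched as AAGATGGC, went with 3.17% (4 of 126), 2.55% and 1.499%, and with 5.77% (3 of 52), 4.46% and 3.93% among those pairs. Both thus kept their order there, as the ETS motif did, on few pairs that held the letters in both promoters.

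Lists of pathway and cell type genes were set beside the background of 55.4% of coding genes in a gene-to-gene contact. All 12 microglia and macrophage genes were in one (73.5 to 100%), with a median of 2 partner genes. Some partners were relatives. P2ry12, a purine receptor of microglia, was joined to P2ry13 at 60 kb and Trem2 to Trem1 at 110 kb, by 1 interaction each. Itgam, an integrin chain, was joined to Itgad among 5 partners. Other genes of the list had partners that are not relatives, such as Xirp1 for Cx3cr1, Cdc42 for C1qb, and Iscu and Sart3 for Tmem119. Ptprc was joined to Nek7. Csf1r, the receptor of a macrophage growth factor, was joined to Pdgfrb by 1 interaction at 40 kb. Their symbols share no stem, which does not settle whether they are relatives. The Csf1r bin also holds an end of Hmgxb3, so which of the 2 is the partner of Pdgfrb cannot be told. Of the 12 AP-1 genes 11 were in a contact, all but Fosl1, and Fosl2 had 7 partner genes. Of 22 YAP/TEAD targets 17 were, among them Ccn1, which was joined to Ddah1 by 4 interactions at 110 to 250 kb and to Bcl10 by 2 at 270 and 280 kb. Ccn2 was not, although it had 13 interactions with sites away from gene ends.

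The other lists lay nearer the background or were small. In a contact were 10 of 14 Notch genes, 8 of 12 neural stem cell and radial glia genes, 7 of 9 oligodendrocyte lineage genes, 6 of 10 astrocyte genes, 5 of 8 endothelial and 5 of 8 pericyte and fibroblast genes. Cell cycle genes and ependymal genes each had 6 of 12, and neuronal genes 4 of 12. Of broadly expressed genes 7 of 9 were in a contact and of genes of unrelated tissues 7 of 12. The intervals of all these lists are wide and hold the background, except those of the microglia and AP-1 lists. Genes of a list can share partner bins, as Fos, Jdp2 and Batf share those of Nek9 and Tmed10. The intervals take the genes as independent, so they are too narrow to set those lists apart. No cell type is called from the lists, and how many cells of each type the libraries held is not known here.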

How the data were processed

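H3K27ac HiChIP was made with a micrococcal nuclease kit, per the labels' protocols, although the sample titles say ChIP-seq. The deposited file is 1 list of paired 10 kb anchors (chromosome, start, end), per the file header, without counts or scores. Per the submitters' processing notes, BWA and mm10 were used; no source used here gives the caller, the threshold or whether replicates were pooled.

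Genes came from the RefSeq table of GRCm38.p6. Shares were counted over all candidate pairs or bin pairs with Python 3.11.15, pandas 2.3.3, NumPy 2.4.6 and SciPy 1.17.1, and the counting was tested on simulated data. No test was run. Paralogs were to be defined by protein alignment; no proteins were used here, so a shared symbol stem of at least 2 letters, the alternative, took its place, and the stricter alignment was not run.

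Members, lists, motifs and rules were chosen with earlier results of these data known. Named were the 10 pairs with most interactions and the 10 genes with most partners through 1-gene anchors, the 5 longest and the 5 most skipping pairs, 10 same-stem pairs, the 10 most skipped genes and the neighbour list. Added after values were seen were the splits by family, by contacts away from gene ends, by end, orientation and CpG content (1 minimum tried), the motif split within CpG-rich pairs, 29 further pairs and the printed promoters. Some named pairs are not reported here.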

Additional observations from a re-analysis of the deposited data

How the results depend on the processing

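No paired analysis was possible because no value belongs to a single library. The share of interactions that are gene-to-gene contacts follows the definition of a gene end: 11.7% with a window of 0 kb, 20.8% with 5 kb, 4.21% with the bin midpoint inside the window, 7.46% with 1 coding gene at each anchor, 31.7% with all annotated genes, 28.2% of merged contacts, and 8.89% with listed start sites alone. In that order where run, without merging, candidate pairs were joined in 4.30%, 6.26%, 2.78%, 2.59%, 3.58% and 3.86% of cases, and same-stem pairs in 1.37%, 1.96%, 1.21%, 0.965%, 1.43% and 1.36%, so same-stem pairs stayed below candidate pairs in these 6. Leaving out chemoreceptor stems gave 7.30%, leaving out placeholder stems such as Zfp and Tmem 1.09%, and leaving out both 5.53%. Distinct pairs numbered 5592 by midpoint, 4963 with 1-gene anchors, 50409 with all genes and 9603 with start sites alone. Contacts that skip a gene made up 76.9% (0 kb), 70.3% (5 kb), 77.4% (midpoint), 72.8% (merged), 66.3% (1 gene), 87.3% (all genes), 74.7% (any gene end between) and 77.3% (start sites). The median skipped was 1 at 5 kb, 1.5 merged, 1 with 1-gene anchors and 3 with all genes, and the median distance 160 kb by midpoint, 180 kb merged and 180 kb with 1-gene anchors. Of 68 named joined pairs, 59 stayed joined at 0 kb, 68 at 5 kb, 17 by midpoint, 56 with 1-gene anchors and 37 with start sites alone. With starts taken from the listed sites alone, without the 5′ end of the gene record, the shares were 2.47%, 1.13% and 0.590% in the same order of end classes. The alternatives that use start sites were chosen after seeing the data. Depth could not be judged.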
